A study of Mus musculus with 20 samples.

Results

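The growth hormone, STAT5 and IGF1 axis was followed here through 9 genes in mouse liver: Ghr, Stat5a, Stat5b, Igf1, Igfbp3, Socs2, Cish, Bcl6 and Cux2. They were taken by symbol from the deposited gene table, in which 23993 of 35504 genes had an intact line. All 9 members had an intact line and passed the filter on low counts, so all 9 were among the 10207 genes tested. RNA sequencing was done on liver from 20 female mice, 1 library a mouse, to compare a diet with oral combined contraceptives (OC) with a vehicle diet, each with or without voluntary wheel running. The groups of 5 were vehicle diet and sedentary (Con.Sed), vehicle diet and running (Con.VWR), OC diet and sedentary (OC.Sed), and OC diet and running (OC.VWR). Strain, age, the hormones in the diet and their dose are not given in the sources used here. The mice of a group are numbered in deposit order, which pairs no mice across groups.

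Growth hormone from the pituitary binds its receptor on hepatocytes, JAK2 is activated there, and STAT5A and STAT5B are phosphorylated, form dimers and enter the nucleus. STAT5 switches on Igf1, the main source of circulating IGF1, and also Socs2 and Cish, which feed back to damp the receptor signal. The pulsed release of the hormone in male rodents and its more continuous release in females give the liver many sex-biased genes. Among these are the repressors Bcl6, higher in males, and Cux2, higher in females. Transcript levels do not report STAT5 phosphorylation.

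Totals over the intact lines ran from 10883936 to 16134618 counts per library, and the counts of the lines left out are not in them. Replicate 2 of Con.Sed stood apart on the second principal component of log2 CPM (11.2% of the variance): its score was 55.3, and those of the rest ran from -17.9 to 11.1. Component 1 (39.7%) separated the diets, with all vehicle libraries below 0 and all OC libraries above it. Values below are CPM, a per-library count scale with totals over the tested genes corrected by TMM (trimmed mean of M-values). SD is over the 5 mice of a group. Hepatocyte markers (7 of 12 listed had an intact line, none was at 0) were high in every library, as the tissue label says, and their sum moved with diet: it was 144400 to 201900 CPM in vehicle libraries and 85470 to 122800 CPM in OC libraries. Most of that sum was Alb, at 56540 to 157000 CPM. The mean log2 CPM of the 7 markers overlapped between diets, at 12.76 to 13.36 on vehicle and 12.67 to 13.02 on OC. On OC 3 of the 7 were lower and 1 higher in sedentary mice (7.20% and 9.11% of all tested genes were). In running mice 2 of the 7 were lower and 1 higher (6.06% and 7.09%). The part of these markers in the results below was not tested. The fitted log2 fold changes (OC minus vehicle, or running minus sedentary) and their standard errors come from edgeR's quasi-likelihood test, adjusted by Benjamini-Hochberg over all 10207 genes at a threshold of 0.05.

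On the OC diet Stat5a rose in sedentary and in running mice, while Igfbp3 and Cux2 fell in both, and Igf1 fell in running mice. The Cux2 call in sedentary mice was kept in 11 of the 20 fits that left out 1 library, so the count of members called there was 2 or 3, and in running mice it was 3 or 4. In sedentary mice 3 of the 9 members passed the test, where 16.3% of all tested genes did; 1 member was higher (9.11% of all genes were) and 2 were lower (7.20%). In running mice 4 of 9 passed (13.2% of all genes), 1 higher (7.09%) and 3 lower (6.06%). Averaged over activity the count was 4 of 9 (22.9% of all genes), 1 higher (11.9%) and 3 lower (11.0%). The median log2 fold change of the 9 members was 0.14 in sedentary and -0.06 in running mice, against -0.01 and 0.01 over all tested genes. The 2 diet contrasts use separate mice, and the averaged contrast contains both.

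**Figure D1:**
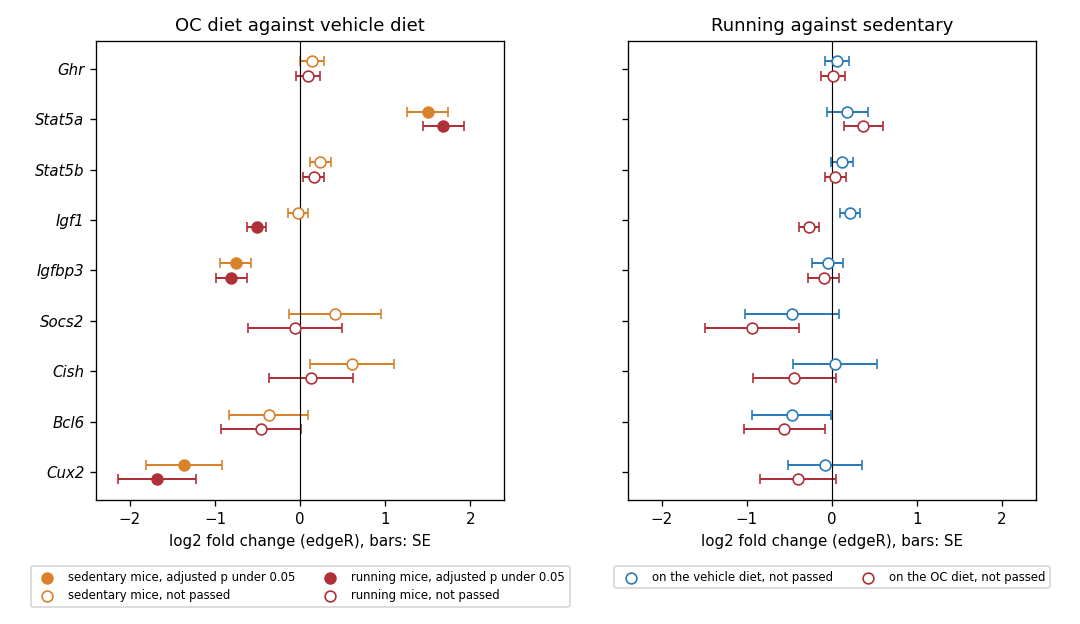
Log2 fold changes of the 9 genes (x axis, edgeR, bars are standard errors) for the OC diet against vehicle in sedentary and running mice (left) and for running against sedentary on each diet (right), with filled points for an adjusted p under 0.05. Stat5a lies at 1.5 and 1.68, Cux2 at -1.36 and -1.68 and Igfbp3 at -0.76 and -0.81 on the left, and no point is filled on the right.

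Wheel running moved none of the 9 members past the threshold. On the vehicle diet the count was 0 of 9, with 0% of all genes called; on the OC diet it was 0 of 9 (0%), averaged over diet 0 of 9 (0%), and for the interaction of diet and running 0 of 9 (0%). At an unadjusted p under 0.05 the members numbered 0, 1, 0 and 1 in these 4 contrasts, and all genes 1414, 694, 496 and 1802. DESeq2 called 42, 1, 2 and 119 genes there, of which 1 was a member, Igf1 in the interaction. In simulated counts, 1.5-fold changes were recovered by edgeR for 41.9% of changed genes for running on vehicle. The share was 50.7% for running on OC and 25.3% for the interaction, so changes of that size can be missed.

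The receptor was measured by Ghr (chromosome 15, 3317760 to 3583492, minus strand, GRCm38), the gene for the growth hormone receptor. Its CPM in Con.Sed was 789.3, 434.1, 834.0, 813.3 and 1013. In Con.VWR it was 809.8, 819.1, 758.3, 821.3 and 843.1, in OC.Sed 878.3, 883.6, 786.9, 828.8 and 910.5, and in OC.VWR 881.3, 758.5, 907.0, 827.5 and 951.9. The groups overlapped, and the only library far below the others was replicate 2 of Con.Sed. From low to high the group means were Con.Sed 776.7 ± 210.9, Con.VWR 810.3 ± 31.5, OC.Sed 857.6 ± 49.3 and OC.VWR 865.3 ± 74.7 (SD, n = 5), and neither running difference within a diet passed; Con.VWR against OC.Sed was not tested. The diet difference was 0.14 in log2 (SE 0.14, adjusted p = 0.527, edgeR) in sedentary mice and 0.09 (SE 0.14, adjusted p = 0.705) in running mice. Without replicate 2 of Con.Sed the sedentary value was -0.01, on the other side of 0. The averaged diet difference was 0.24 (edgeR, adjusted p = 0.0486) when only library totals were used for scaling; that choice also put the all-gene median at 0.12.

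Stat5a (chromosome 11, 100859351 to 100885169, plus strand) encodes the less abundant of the STAT5 pair in liver. It was at 22.04, 19.7, 16.7, 20.7 and 12.7 CPM in Con.Sed and at 17.9, 19.4, 21.1, 22.9 and 23.2 CPM in Con.VWR. On OC it was at 56.1, 61.0, 55.1, 29.6 and 58.3 CPM in sedentary mice and at 56.3, 42.8, 75.7, 44.2 and 115.7 CPM in running mice. All 10 OC libraries were above all 10 vehicle libraries, a separation upward that 1.69% of all tested genes showed. Means rose from 18.4 ± 3.73 to 52.0 ± 12.8 CPM in sedentary mice (SD, n = 5; fitted fold 2.83, log2 1.5, SE 0.24, adjusted p = 0.000255, edgeR) and from 20.9 ± 2.28 to 66.9 ± 30.3 CPM in running mice (fitted fold 3.21, log2 1.68, SE 0.24, adjusted p = 6.04e-05). Averaged over activity the log2 fold change was 1.59 (SE 0.17, edgeR, adjusted p = 6.21e-07). Leaving out any of the 20 libraries kept the call, with values from 1.39 to 1.65 in sedentary and 1.37 to 1.81 in running mice. Stat3, the neighbouring gene, shares 72 exon bases with Stat5a on the other strand, and the strand setting of the counting is not given in the sources used here.

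Stat5b (chromosome 11, 100780731 to 100850724, minus strand), the main STAT5 of hepatocytes, was higher than Stat5a in all 20 libraries on the CPM per kb scale. Its means were 79.0 ± 13.9, 85.6 ± 7.90, 93.1 ± 11.8 and 95.6 ± 15.4 CPM in Con.Sed, Con.VWR, OC.Sed and OC.VWR (SD, n = 5), and the single libraries ran from 61.5 to 119.7 CPM. Diet differences were 0.24 (SE 0.13, adjusted p = 0.205) in sedentary and 0.16 (SE 0.13, adjusted p = 0.427) in running mice with edgeR, and 0.20 (SE 0.09, adjusted p = 0.112) averaged. The averaged value was 0.24 (edgeR, adjusted p = 0.0474) without replicate 3 of Con.Sed. With library totals alone it was 0.32 (edgeR, adjusted p = 0.00776), and the sedentary value was 0.36 (adjusted p = 0.0430). That scaling also put the all-gene median at 0.12 averaged and 0.10 in sedentary mice.

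The ratio of Stat5a to Stat5b, both as CPM per kb of exon, was also read in each library. It was 0.199, 0.249, 0.131, 0.221 and 0.129 in Con.Sed and 0.175, 0.194, 0.171, 0.195 and 0.214 in Con.VWR. On OC it was 0.459, 0.524, 0.416, 0.309 and 0.439 in sedentary mice and 0.533, 0.335, 0.624, 0.415 and 0.751 in running mice. The highest ratio on vehicle was below the lowest on OC, and Stat5a stayed under Stat5b in every library. In both genes 608 windows of 50 bases were the same, 8.21% of those of Stat5a and 10.98% of those of Stat5b, and how reads from them were assigned is not given in the sources used here.

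**Figure D2:**
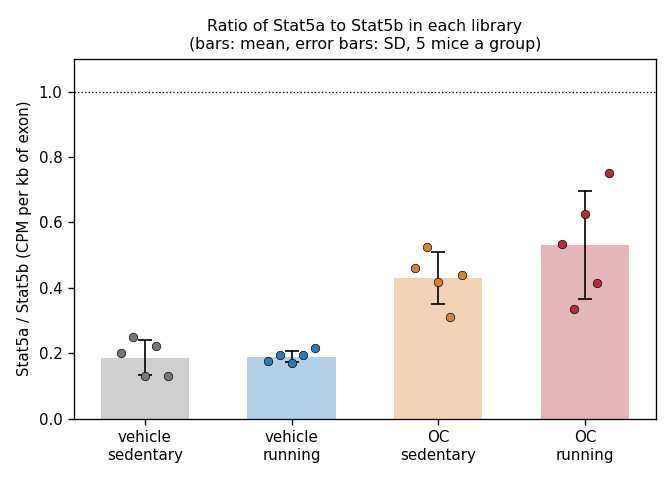
Ratio of Stat5a to Stat5b, each as CPM per kb of exon (y axis), in the 4 groups, with points for the 5 mice, bars for means and error bars for the SD. The vehicle groups average 0.186 and 0.190 and the OC groups 0.430 and 0.531, all under the dotted line at 1.

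Igf1 (chromosome 10, 87858265 to 87937042, plus strand) encodes insulin-like growth factor 1, the liver's endocrine product of this axis. It was at 709.3, 558.8, 653.5, 809.2 and 792.3 CPM in Con.Sed and 828.5, 712.3, 824.9, 834.4 and 890.3 CPM in Con.VWR. On OC it was at 661.9, 617.4, 724.9, 764.5 and 696.9 CPM in sedentary mice, whose range lay within that of Con.Sed. In running mice on OC it was at 467.0, 690.9, 530.8, 642.5 and 537.9 CPM, all below the lowest Con.VWR library. From high to low the means were Con.VWR 818.1 ± 64.9, Con.Sed 704.6 ± 103.1, OC.Sed 693.1 ± 56.6 and OC.VWR 573.8 ± 90.8 CPM (SD, n = 5).

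The diet difference of Igf1 did not pass in sedentary mice (log2 -0.02, SE 0.12, adjusted p = 0.915, edgeR), and Igf1 fell by 0.51 in log2 in running mice (SE 0.12, adjusted p = 0.00577, edgeR). The running difference was 0.22 on vehicle (SE 0.12, adjusted p = 0.408, edgeR) and -0.27 on OC (SE 0.12, adjusted p = 0.683, edgeR). The difference between the diet effects was -0.49 (SE 0.16) with an unadjusted p of 0.00718, and its adjusted p was 0.201 with edgeR and 0.0425 with DESeq2. Leaving out 1 library at a time gave interaction values from -0.56 to -0.42, and none passed in edgeR. Averaged over activity Igf1 fell by 0.27 in log2 (SE 0.08, adjusted p = 0.0218, edgeR). With library totals alone, which put the all-gene median at 0.12, the value was -0.15 (adjusted p = 0.135, edgeR). Igf1os lies on the other strand with 0 shared exon bases.

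Igfbp3 (chromosome 11, 7206086 to 7213923, minus strand) encodes the binding protein that carries most circulating IGF1. Its CPM was 23.0, 37.6, 19.8, 21.2 and 19.1 in Con.Sed and 23.5, 25.6, 21.3, 17.7 and 28.2 in Con.VWR. On OC it was 11.4, 12.4, 12.9, 18.4 and 16.2 in sedentary mice and 14.1, 16.9, 11.2, 13.3 and 11.0 in running mice. Neither diet pair overlapped. The mean fell from 24.1 ± 7.66 to 14.2 ± 2.94 CPM in sedentary mice (SD, n = 5; 1.69-fold lower, log2 -0.76, SE 0.18, adjusted p = 0.00826, edgeR) and from 23.3 ± 4.02 to 13.3 ± 2.42 CPM in running mice (1.75-fold lower, log2 -0.81, SE 0.18, adjusted p = 0.00585, edgeR). Without replicate 2 of Con.Sed, the highest vehicle library, the sedentary value was -0.54 and still passed (adjusted p = 0.0209, edgeR). The means ranked Con.Sed, Con.VWR, OC.Sed and OC.VWR from high to low, and neighbours within a diet did not pass.

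Counting groups without overlap, 2 of 9 members separated by diet in sedentary mice (11.0% of all tested genes) and 3 of 9 in running mice (10.4%). Running separated 0 of 9 on vehicle (2.01%) and 0 of 9 on OC (1.06%).

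Igfbp3 is made in liver largely by cells other than hepatocytes, so cell markers are given beside it. Stellate cell and fibroblast markers (9 of 12 listed had an intact line, none was at 0) summed to 663.6 to 939.5 CPM in Con.Sed and 619.3 to 834.7 in Con.VWR. They summed to 410.3 to 709.6 CPM in OC.Sed and 406.4 to 642.4 in OC.VWR. On OC 7 of the 9 were lower in sedentary mice (7.20% of all genes were) and 5 of 9 in running mice (6.06%), and 0 were higher. Replicate 2 of Con.Sed had the highest stellate sum. It also had the highest sum of cholangiocyte markers (7 of 7 listed), 149.8 CPM with the next of its group at 98.57, and the highest lymphocyte and neutrophil sum of Con.Sed (7 of 11 listed), 15.3 CPM with the next at 13.35. Of 6 tested lymphocyte and neutrophil markers, 0 were higher and 2 lower on OC in sedentary mice (9.11% and 7.20% of all genes were). In running mice 2 of these 6 were higher and 1 lower (7.09% and 6.06%). Of 6 cholangiocyte markers 0 passed in either. Kupffer markers (8 of 12) summed to 461.1 to 722.7, 354.2 to 565.3, 482.8 to 679.5 and 405.7 to 693.2 CPM in Con.Sed, Con.VWR, OC.Sed and OC.VWR. Endothelial markers (9 of 12) summed to 287.6 to 406.1, 277.5 to 417.2, 271.5 to 412.1 and 246.7 to 419.7 CPM in the same order. Replicate 2 of Con.Sed also had the highest Kupffer sum, 722.7 CPM, while its endothelial sum of 355.7 CPM lay inside the range of its group. On OC 1 of 8 Kupffer markers was higher and 0 lower in sedentary mice (9.11% and 7.20% of all genes were). Of 9 endothelial markers 0 were higher and 1 lower there. In running mice 0 of either set passed. The part of these cells in the Igfbp3 result was not tested, and in whole liver fewer cells of a type and less RNA per cell cannot be told apart.

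**Figure D3:**
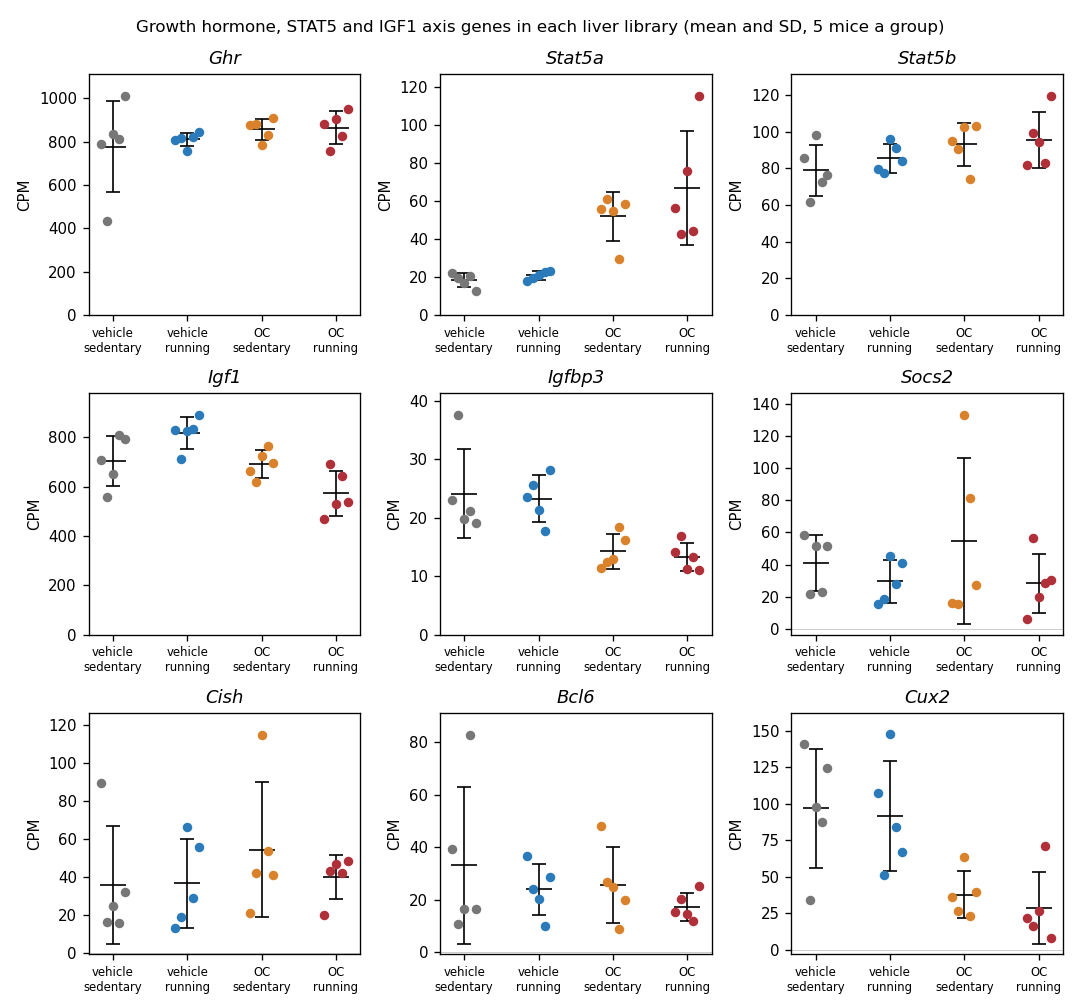
CPM of the 9 genes (y axis, from 0) in the 4 groups, with points for single mice, horizontal bars for means and error bars for the SD of 5 mice. Stat5a is higher and Igfbp3 lower in the OC groups, Cux2 is lower with overlap, and Socs2, Cish and Bcl6 spread within every group.

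The feedback genes Socs2 and Cish encode suppressors of cytokine signalling that STAT5 induces and that limit signalling from the receptor. Socs2 (chromosome 10, 95385362 to 95417180, minus strand) was at 58.2, 21.7, 51.4, 22.9 and 51.4 CPM in Con.Sed and 15.3, 18.8, 45.2, 28.1 and 41.2 in Con.VWR. It was at 16.2, 15.5, 133.2, 81.1 and 27.2 CPM in OC.Sed and 6.48, 56.4, 20.1, 28.5 and 30.7 in OC.VWR. All groups overlapped, and the highest and lowest libraries of the 20 were both on OC. The log2 diet difference was 0.41 (SE 0.55, adjusted p = 0.650, edgeR) in sedentary and -0.06 (SE 0.55, adjusted p = 0.957) in running mice. Leaving out 1 library gave -0.23 (without OC.Sed replicate 3) to 0.65 in sedentary mice and -0.46 (without OC.VWR replicate 2) to 0.19 (without OC.VWR replicate 1) in running mice, so the sign was not fixed in either.

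Cish (chromosome 9, 107296026 to 107302784, plus strand) was at 89.6, 16.1, 24.9, 15.99 and 32.2 CPM in Con.Sed and 12.98, 19.2, 66.3, 28.7 and 55.7 in Con.VWR. It was at 21.1, 41.9, 114.7, 53.4 and 40.8 CPM in OC.Sed and 20.02, 43.1, 46.6, 42.1 and 48.2 in OC.VWR, again with overlap everywhere. The diet difference was 0.61 (SE 0.49, adjusted p = 0.427, edgeR) in sedentary and 0.13 (SE 0.49, adjusted p = 0.892) in running mice. Leaving out 1 library gave 0.13 (without OC.Sed replicate 3) to 1.28 (without Con.Sed replicate 1) in sedentary mice and -0.10 (without Con.VWR replicate 1) to 0.46 in running mice. On the other strand Gm17040 and Gm17041 share 740 exon bases with Cish.

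Socs2 and Cish varied together within groups. After subtracting each group's mean from log2 CPM, their Pearson r over 20 libraries was 0.78 (Spearman 0.82). It was 0.72 without the 2 libraries farthest from their group mean in Socs2. Within Con.Sed it was 0.80. Replicate 3 of OC.Sed had the highest value of both genes and replicate 1 of OC.VWR the lowest of Socs2. The points share library depth and the same scaling. The within-group SD in log2 was 1.03 for Socs2 and 0.88 for Cish, above those of 99.6% and 99.3% of the 7737 genes whose mean reached 5 CPM.

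**Figure D4:**
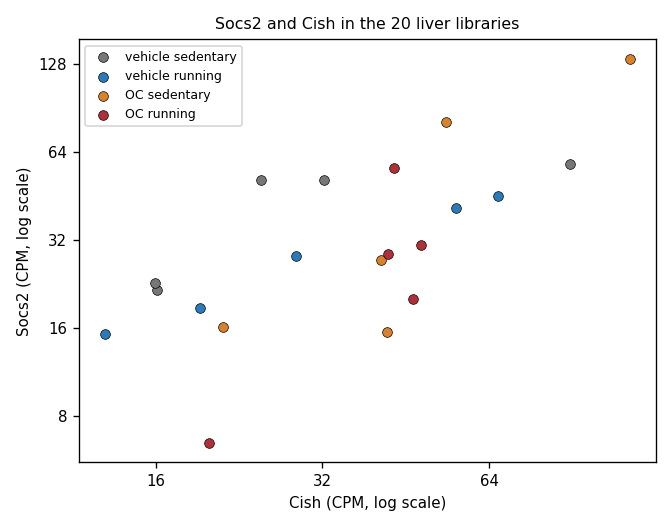
Socs2 (y axis) against Cish (x axis), both in CPM on log scales, in the 20 libraries coloured by group. Most libraries lie along a rising diagonal in all 4 groups, with the highest at 114.7 CPM for Cish and 133.2 for Socs2.

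Bcl6 (chromosome 16, 23965052 to 23988852, minus strand) encodes a transcriptional repressor that in liver counters STAT5 at shared sites. The canonical STAT5 motif TTCNNNGAA, a palindrome that reads the same on both strands, was searched in the 250 bases before each RefSeq start (GRCm38.p6) of the members. It was found at 2 of 13 starts of the 8 members with an entry, both in Bcl6, and in 7.01% of all 32817 starts (2 or more matches in 0.317%). The starts of Bcl6 are shown because they are the ones that hold it, with the motif in capitals and read toward the gene, 5′ to 3′. The regions are chr16:23988853-23989102 and chr16:23981284-23981533, minus strand.
Bcl6 start 1: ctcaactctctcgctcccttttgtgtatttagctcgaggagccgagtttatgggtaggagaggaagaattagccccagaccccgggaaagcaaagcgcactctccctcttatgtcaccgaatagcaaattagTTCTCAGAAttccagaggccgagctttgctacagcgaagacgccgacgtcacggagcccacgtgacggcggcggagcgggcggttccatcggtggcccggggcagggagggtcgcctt
Bcl6 start 2: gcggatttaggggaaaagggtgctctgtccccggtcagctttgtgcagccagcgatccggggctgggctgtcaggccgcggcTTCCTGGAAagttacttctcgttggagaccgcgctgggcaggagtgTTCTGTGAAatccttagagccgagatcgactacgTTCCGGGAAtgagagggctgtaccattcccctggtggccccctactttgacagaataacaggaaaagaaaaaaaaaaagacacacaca
Counted from the start, the match at start 1 begins at position -118, and the 3 at start 2 begin between -168 and -88. A match describes these letters and says nothing of binding, and the absence of a match in the other starts is limited to these windows.

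Bcl6 was at 39.3, 10.7, 16.3, 82.8 and 16.7 CPM in Con.Sed and 36.6, 23.9, 20.5, 10.1 and 28.7 in Con.VWR. It was at 48.3, 26.8, 25.0, 8.74 and 20.1 CPM in OC.Sed and 15.2, 20.3, 14.7, 11.8 and 25.1 in OC.VWR, all overlapping. The diet difference was -0.37 (SE 0.46, adjusted p = 0.627, edgeR) in sedentary and -0.46 (SE 0.47, adjusted p = 0.559) in running mice. The sedentary value was 0.31, on the other side of 0, without Con.Sed replicate 4, the library at 82.8 CPM. Its within-group deviations had r of -0.22 with Socs2 and -0.09 with Cish over 20 libraries.

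Cux2 (chromosome 5, 121856366 to 122050102, minus strand), a homeobox repressor of male-biased genes in female liver, was at 140.8, 34.2, 97.6, 87.5 and 124.5 CPM in Con.Sed and 107.1, 51.3, 147.7, 83.8 and 67.1 in Con.VWR. It was at 36.0, 26.5, 63.7, 22.8 and 39.4 CPM in OC.Sed and 21.4, 16.4, 26.7, 70.8 and 7.73 in OC.VWR. All OC libraries were below the mean of the matching vehicle group, and the ranges overlapped through replicate 2 of Con.Sed and replicate 4 of OC.VWR. Means fell from 96.9 ± 41.0 to 37.7 ± 16.1 CPM in sedentary mice (SD, n = 5; 2.58-fold lower, log2 -1.36, SE 0.45, adjusted p = 0.0423, edgeR) and from 91.4 ± 37.7 to 28.6 ± 24.6 CPM in running mice (3.21-fold lower, log2 -1.68, SE 0.45, adjusted p = 0.0183, edgeR). Averaged over activity the log2 value was -1.52 (SE 0.32, adjusted p = 0.00141, edgeR), and this call was kept without any 1 library.

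The sedentary Cux2 call is near the threshold. It was kept in 11 of 20 fits that left out 1 library and lost without Con.Sed replicates 1, 3, 4 and 5, OC.Sed replicates 1, 2, 4 and 5, or OC.VWR replicate 3, with values of -1.19, -1.37, -1.40 and -1.27, then -1.36, -1.26, -1.23 and -1.38, and -1.36 (adjusted p from 0.0502 to 0.0963, edgeR). In running mice it was lost without Con.VWR replicate 3 (-1.44, adjusted p = 0.0558, edgeR) or OC.VWR replicate 1 (-1.59, adjusted p = 0.0533), and the value was -2.35 without OC.VWR replicate 4. Gm3970 and Gm15637 lie on the other strand with 0 shared exon bases.

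On a per-length scale, Ghr and Igf1 were the most abundant members, with means over 20 libraries of 91.4 and 70.4 CPM per kb of exon. Stat5b followed at 15.9. Cish, Cux2, Igfbp3 and Stat5a lay close together at 6.49, 6.31, 5.99 and 5.54, and Socs2 and Bcl6 at 4.04 and 3.74 CPM per kb. The within-group SD in log2 split the members another way: 0.85 for Bcl6, 0.82 for Cux2, 0.41 for Stat5a, 0.30 for Igfbp3, 0.24 for Ghr, 0.21 for Stat5b and 0.18 for Igf1. Bcl6 and Cux2 were more variable within groups than 99.3% and 99.2% of the 7737 genes, and Igf1 than 40.9%.

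Among the 36 pairs of members, leaving aside Socs2 and Cish, the largest positive within-group r was 0.62 for Igf1 and Socs2 and the largest negative one -0.69 for Ghr and Igfbp3. The latter was -0.36 without replicate 2 of Con.Sed. Stat5a and Stat5b had r of 0.50. It was 0.18 without the 2 libraries farthest from their group mean in Stat5a, and 0.62 without replicate 2 of Con.Sed. These are descriptions over 20 libraries that share depth and scaling.

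**Figure D5:**
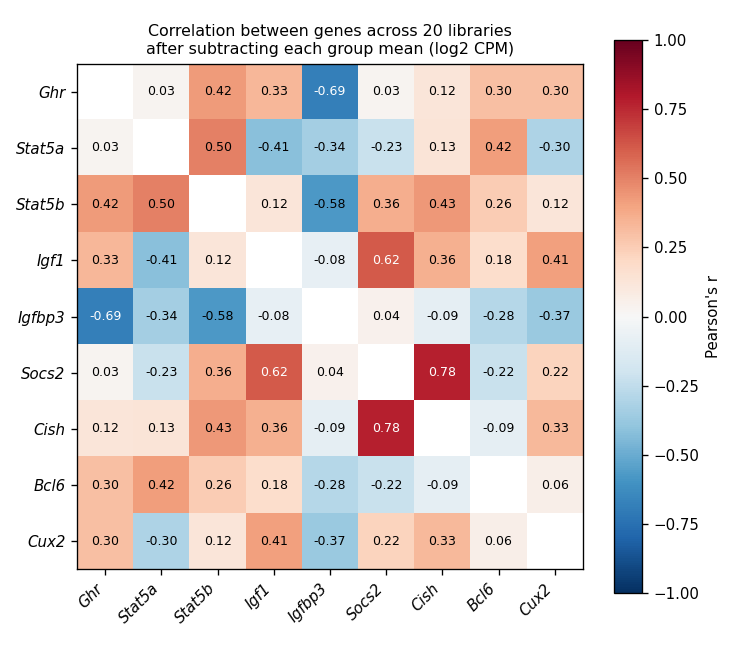
Pearson correlation between each pair of the 9 genes over 20 libraries after subtracting group means from log2 CPM, coloured from -1 to 1. The highest value is 0.78 for Socs2 and Cish, and the lowest is -0.69 for Ghr and Igfbp3.

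Genes most like each member in the same within-group measure were sought among 7736 others. The values given are the highest found for each member, and no p was computed for them. Cish was most like Foxq1 (r 0.90) and Foxa2 (0.85), and Socs2 most like Gm20649 (0.93), Ptbp3 (0.90) and Calcoco1 (0.88). Cux2 had Kng1 (0.82), Fgb (0.79) and Fgl1 (0.78), and Bcl6 had Ift172 (0.85), Bcar1 (0.82) and Vps52 (0.82). Stat5a was closest to Adam19 (0.86), Tmem200b (0.86) and Pgpep1 (0.85), Stat5b to Asrgl1 (0.86) and Papss2 (0.81), and Igf1 to Acot12 (0.86), Zfp629 (0.86) and Arhgef26 (0.85). Igfbp3 was closest to Vcam1 (0.84), Kctd17 (0.83) and Pcgf2 (0.81), at 0.73, 0.72 and 0.74 without replicate 2 of Con.Sed. Ghr was closest to Cnmd (0.96) and Tprkb (0.90), and those values were 0.76 and 0.57 without replicate 2 of Con.Sed. Mup22 came next and is named without a value, because reads of Mup genes may be shared between copies.

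Around the members, 5 lists of other pathway genes held 68 genes, of which 53 were tested. In sedentary mice on OC 9 were higher and 4 lower (24.5% against 16.3% of all genes), in running mice 2 higher and 7 lower (17.0% against 13.2%). Running called 0 of 53 on either diet, where 0% of all genes were called.

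On the receptor side 10 of 10 listed genes were tested. On OC 1 was higher and 1 lower in sedentary mice (9.11% and 7.20% of all genes) and 1 higher and 2 lower in running mice (7.09% and 6.06%). Egfr, the epidermal growth factor receptor, whose level in liver depends on growth hormone, rose from 167.3 ± 45.5 to 609.7 ± 134.2 CPM in sedentary mice (SD, n = 5; log2 1.87, SE 0.27, adjusted p = 9.64e-05, edgeR) and from 174.3 ± 46.6 to 499.1 ± 262.3 CPM in running mice (log2 1.52, SE 0.27, adjusted p = 0.000684, edgeR). The other called genes of this list were Igf2, lower in sedentary mice at a mean of 0.857 CPM, which lies under the limit for naming and was picked after its values were seen, and Insr and Prlr, lower in running mice.

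Of the JAK, STAT and adaptor genes 13 were tested. On OC 2 were higher and 0 lower in sedentary mice, where 9.11% and 7.20% of all genes were, and 0 were higher and 2 lower in running mice, where 7.09% and 6.06% were. Stat6, a STAT of interleukin signalling, rose from 62.0 ± 7.74 to 81.6 ± 2.68 CPM in sedentary mice (SD, n = 5; log2 0.40, SE 0.09, adjusted p = 0.00525, edgeR) and had 0.13 (adjusted p = 0.347) in running mice. Jak2, the kinase bound to the receptor, fell from 24.5 ± 1.69 to 18.7 ± 1.90 CPM in running mice (SD, n = 5; log2 -0.39, SE 0.09, adjusted p = 0.00509, edgeR) and had -0.17 (adjusted p = 0.179) in sedentary mice. The interaction gave -0.26 (edgeR, adjusted p = 0.283) for Stat6 and -0.21 (adjusted p = 0.359) for Jak2.

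Of the 11 tested negative regulators 2 were higher and 0 lower in sedentary mice (Socs7 and Fbxw11; 16.3% of all genes passed) and 0 passed in running mice (13.2%). Socs1 and Socs3, the other inducible suppressors, passed in neither. In log2 Socs1 was at -0.46 (SE 0.30) in sedentary and -0.64 (SE 0.31) in running mice. Its mean of 0.845 CPM lies under the limit for naming. Socs3 was at 0.03 (SE 0.33) in sedentary and 0.24 (SE 0.33) in running mice.

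Of the 8 tested genes for IGF binding and release, 1 was higher and 1 lower in sedentary mice (9.11% and 7.20% of all genes) and 1 higher and 0 lower in running mice (7.09% and 6.06%). Igfbp2 fell from 1133 ± 193.2 to 514.5 ± 105.9 CPM in sedentary mice (SD, n = 5; log2 -1.14, SE 0.19, adjusted p = 0.000366, edgeR). In running mice the same protein's gene was at 733.4 ± 211.3 and 628.2 ± 120.6 CPM (log2 -0.22, adjusted p = 0.462, edgeR), and the interaction was 0.92 (adjusted p = 0.201). Htra1, a protease that cleaves IGF-binding proteins, rose from 3.31 ± 1.40 to 5.99 ± 1.61 CPM in sedentary mice (log2 0.86, SE 0.23, adjusted p = 0.0148, edgeR) and from 2.04 ± 0.379 to 6.12 ± 1.11 CPM in running mice (log2 1.57, SE 0.24, adjusted p = 0.000115). The sedentary Htra1 call was lost without OC.Sed replicate 5 (0.68, edgeR, adjusted p = 0.0512) and in a fit of these 2 groups alone (0.85, adjusted p = 0.0567). Igfbp1, Igfbp4, Igfbp5, Igfbp6, Igfbp7 and Stc2 did not pass in either diet contrast.

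Among 11 tested liver factors that work with STAT5, 3 were higher and 2 lower in sedentary mice (9.11% and 7.20% of all genes), and 0 higher and 3 lower in running mice (7.09% and 6.06%). Trim24, a transcriptional cofactor, fell from 84.4 ± 18.3 to 56.2 ± 10.2 CPM in sedentary mice (SD, n = 5; log2 -0.59, SE 0.16, adjusted p = 0.0156, edgeR) and from 81.6 ± 10.1 to 46.6 ± 9.41 CPM in running mice (log2 -0.81, SE 0.16, adjusted p = 0.00174). Tox, a nuclear factor known to be higher in female liver, fell from 30.2 ± 5.00 to 11.1 ± 4.47 CPM in running mice (SD, n = 5; log2 -1.45, SE 0.31, adjusted p = 0.00334, edgeR). In sedentary mice its value was -1.07 (adjusted p = 0.0217, edgeR), a call lost without 1 of 5 libraries: Con.Sed replicate 1 (-0.91) or 4 (-0.95) and OC.Sed replicate 1 (-0.99), 2 (-0.91) or 5 (-0.96). A fit of these 2 groups alone gave -1.08 (adjusted p = 0.0513). Other called genes of this and the JAK list included Stat3, Esr1 and Foxa1, higher in sedentary mice, and Gab1, lower in running mice. Foxa1 lies beyond the 4 genes that the rule takes from a list and contrast and was named after its values were seen. The calls of Stat3, Esr1, Gab1, Insr, Prlr, Socs7 and Fbxw11 were lost under at least 1 alternative, and their values are not given. The sedentary call of Foxa1 was not run under the alternatives. Its call averaged over activity was kept in 17 of 20 fits that left out 1 library.

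Sex-biased genes that answer to the hormone's release pattern were read from lists of 26 male-biased and 26 female-biased genes, of which 12 and 8 were tested. On OC 11 of 12 male-biased genes were higher in sedentary mice (9.11% of all genes were) and 10 of 12 in running mice (7.09%), and 0 were lower. Of the female-biased genes 6 of 8 were lower in sedentary mice (7.20%) and 7 of 8 in running mice (6.06%), and 0 were higher. The medians were 4.28 and 3.99 in log2 for the first list and -2.10 and -2.34 for the second, against -0.01 and 0.01 over all genes. Of the 12 male-biased genes tested, 8 were Mup genes, a family of near-identical urinary pheromone carriers whose reads may be shared between copies. Their single values are therefore uncertain and are not given. The counts and medians of the male-biased list include these 8, so its 12 genes may not be separate readings. Hamp2, a hepcidin paralogue on the female-biased list, fell by 4.61 in log2 in sedentary mice (SE 0.48, adjusted p = 1.56e-06, edgeR) and fell by 4.26 in running mice (SE 0.47, adjusted p = 2.36e-06). A1bg, a plasma glycoprotein gene, had -3.31 in sedentary mice (edgeR, adjusted p = 0.0104), a call lost at -1.996 (adjusted p = 0.0546) without Con.Sed replicate 2, and fell by 4.06 in running mice (adjusted p = 0.00252). These lists were chosen with earlier results of these data known, so their direction is no independent evidence. In the running contrasts 0 of these 12 and 0 of these 8 genes passed, where 0% of all genes did.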

How the data were processed

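Liver RNA from 20 mice was sequenced as stranded paired-end libraries, per the labels' protocols. Per the submitters' processing notes, the tools were STAR, R 4.05 and limma and the build mm10, with no roles. How reads were counted, with which annotation and strand setting, is not given in the sources used here. The values the authors deposited were treated like expected counts without scaling, since 2 genes held values that were not whole; all values used were whole, and rounding to whole numbers changed none. The planned design had assumed counts. Of 35504 genes, 11511 were left out: 308 with text in the first library, 2 not whole, 11200 with a 1 in the first library, which may be displaced lines, and 1 with a displaced number.

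Genes were kept by filterByExpr (10207 genes, 99.95% of the counts in intact lines) and scaled by TMM. They were tested with edgeR 4.0.16 in R 4.3.3 in 1 quasi-likelihood model of the 4 groups, with 7 contrasts. Benjamini-Hochberg adjustment was over all tested genes, with a threshold of 0.05. Standard errors were derived from the F statistic. The model was also run on simulated counts drawn from the means and dispersions of the main fit. Of the calls there, 2% (running on OC) to 7.9% (OC in running mice) were genes left unchanged. Alternatives were DESeq2 1.42.0, limma 3.58.1 voom, DESeq2 size factors in edgeR, library totals alone, no low-count filter, the 2 groups compared alone, and each library left out. Coordinates and exon lengths are from GENCODE vM21 (GRCm38, which is mm10); starts are from RefSeq.

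The 9 members and all lists were chosen with earlier results of these data known. Named are all members, the called genes of each pathway list with a mean of at least 1 CPM (up to 4 a list and contrast), the 3 largest called changes of the sex-biased lists with at least 10 CPM, and the 3 genes most like each member at 5 CPM or more. Genes whose call changed with an alternative, and the Mup genes, are named without values unless stated. A few genes picked by this rule are left out of the text. Of the erythroid markers 0 of 5 had an intact line, so they were not analysed here.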

Additional observations from a re-analysis of the deposited data

Results flagged for a closer look

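Each of the 36 sets of 5 mice (9 genes in 4 groups) was checked for a library far from the others, with the gap to the nearest library divided by the range set against Dixon's 95% critical value of 0.71. Chance alone sets off about 1 in 20 such checks.

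Stat5a in OC.Sed had its lowest library at 29.55 CPM (replicate 4), with the others at 55.1 to 61.0 CPM, a gap of 0.811 of the range. Igfbp3 in Con.Sed had its highest at 37.56 CPM (replicate 2), with the next at 23.0 CPM (0.786). Cish in Con.Sed had its highest at 89.55 CPM (replicate 1), with the next at 32.2 CPM (0.779). In OC.VWR it had its lowest at 20.02 CPM (replicate 1), with the next at 42.1 CPM (0.782).

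Igf1 is listed for its running difference, which had opposite signs on the diets. Its mean was 704.6 CPM in Con.Sed and 818.1 CPM in Con.VWR, but 693.1 CPM in OC.Sed and 573.8 CPM in OC.VWR. The interaction test of Igf1 had an unadjusted p of 0.00718 and an adjusted p of 0.201 with edgeR, and an adjusted p of 0.0425 with DESeq2. Cish also had opposite signs (log2 0.04 on vehicle and -0.44 on OC), with an unadjusted interaction p of 0.502 (edgeR).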

How the results depend on the processing

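Over the alternatives 1611 values of the 9 members were recomputed. Of these 1594 kept their side of the threshold, 12 lost a call, 5 gained one, and 0 called values reversed sign; 61 uncalled values changed sign, the largest of them at 0.47 in size. Of 1157 values of 45 results for named list genes, 1084 kept the call and 73 lost it.

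With DESeq2 all genes called numbered 42 for running on vehicle, 1 for running on OC, 2 for running averaged and 119 for the interaction, against 0 in each with edgeR, and 1 member (Igf1) was called in the interaction. Library totals as the only scaling moved the median of all genes to 0.10 and 0.12 in the diet contrasts. Leaving out 1 library at a time gave 998 (without OC.Sed replicate 1) to 1794 genes for OC in sedentary mice and 817 (without OC.VWR replicate 1; 835 without replicate 3) to 1679 in running mice. It gave 2043 to 2616 for OC averaged, 0 to 1 for running on OC and for running averaged, and 0 to 2 for the interaction. The cause of these changes was not tested.

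No paired analysis was possible because the labels carry no replicate numbers. The unit of the deposited values, the counting and its strand setting are not known, 5 mice a group limit the precision for Socs2, Cish, Bcl6 and Cux2, and genes with displaced lines were not analysed here.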
